A study of Homo sapiens with 3 samples.

Results

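Laminins are the large glycoproteins that form the sheet-like polymer of basement membranes, the thin matrix to which epithelial, endothelial, muscle, fat and nerve-sheath cells attach. Each laminin is a trimer of 1 alpha, 1 beta and 1 gamma chain, coiled together and secreted as a unit, and the alpha chain carries the globular domains that bind integrins and dystroglycan. The chain genes were followed here in floating spheres (sarcospheres) of MNNG/HOS, a human osteosarcoma cell line derived from HOS cells by chemical transformation. The members were 9 genes chosen by name, LAMA1 to LAMA5 (alpha chains), LAMB1 to LAMB3 (beta chains) and LAMC1 (a gamma chain), out of 14836 genes named on the arrays. Their list was drawn up with earlier results of these data known.

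Total RNA of 3 sphere cultures was hybridised to one-colour (Cy3) NimbleGen expression arrays, 1 array per culture. One culture had received TGF-beta1 at 4 ng/mL, one had been kept under hypoxia at an oxygen level not given in the sources used here, and one had received no treatment. All 3 were grown in serum-free DMEM/F12 medium, and the suspended spheres were collected after 5 days. With 1 array per group there is no replicate error, no test of a difference and no p-value, so higher and lower are statements about single arrays. The values are the authors' intensities on a linear scale, with medians over all features of 363 (TGF-beta1), 395 (hypoxia) and 383 (untreated) and none below 50. In bulk RNA, fewer cells of a type and less RNA per cell cannot be told apart. Each of the 9 genes has 1 feature, so intensities of different genes are not set against each other. Log2 differences are taken within a gene across the arrays, and only these are compared between genes. LAMA3 was named by its RefSeq accession and the other 8 genes by the platform annotation.

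Genes were called higher or lower at a difference of 2-fold or more (or, as a weaker limit, 1.5-fold), provided that the brighter reading was no lower than the median over the genes of its own array. That median was 402 on the TGF-beta1 array, 427 on the hypoxia array and 410 on the untreated array. This second condition is called the floor. As a yardstick of the spread between features, features of 1 gene were compared with each other. Their log2 differences had an SD, within a gene, of 0.65 among the dimmest of 5 intensity bins and 0.18 among the brightest for TGF-beta1 minus untreated, over 1118 genes with several features. This SD leaves out variation between cultures. Features of a gene can stand for different transcripts, so it also holds differences between transcripts and is not measurement noise alone. The labelled cell type was checked against markers. VIM (vimentin), RUNX2, COL1A1, SPARC and PDGFRB, 5 of 8 mesenchymal and bone markers, lay above the median gene value on all 3 arrays, while ALPL, SP7 and THY1 lay below it. None of 6 endothelial, 7 blood and immune or 2 basal epithelial markers reached it on any array, and of 6 Schwann and muscle markers only ACTC1, the cardiac actin gene, did.

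TGF-beta1 was accompanied by lower readings of 3 alpha chains, LAMA3, LAMA4 and LAMA5, and of the beta chain LAMB2, while LAMB1 differed by 0.03 (log2) from the untreated array. At 2-fold, 3 of the 9 genes were lower and 0 higher with TGF-beta1, against 2.07% and 1.74% of all named genes. At 1.5-fold, 4 were lower and 0 higher, against 6.15% and 6.73% of all named genes. The median log2 difference of the 9 genes was -0.47, against 0.00 over all named genes, with 3 of the 9 brighter and 6 dimmer. Of all named genes, 7376 were brighter and 7458 dimmer. Members that did not reach the floor were LAMA1, LAMA2 and LAMB3. With the arrays centred on their medians, the split over all genes at 2-fold was 341 higher and 258 lower, against 258 higher and 307 lower as deposited, and the laminin split was 0 higher and 3 lower both ways.

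**Figure D1:**
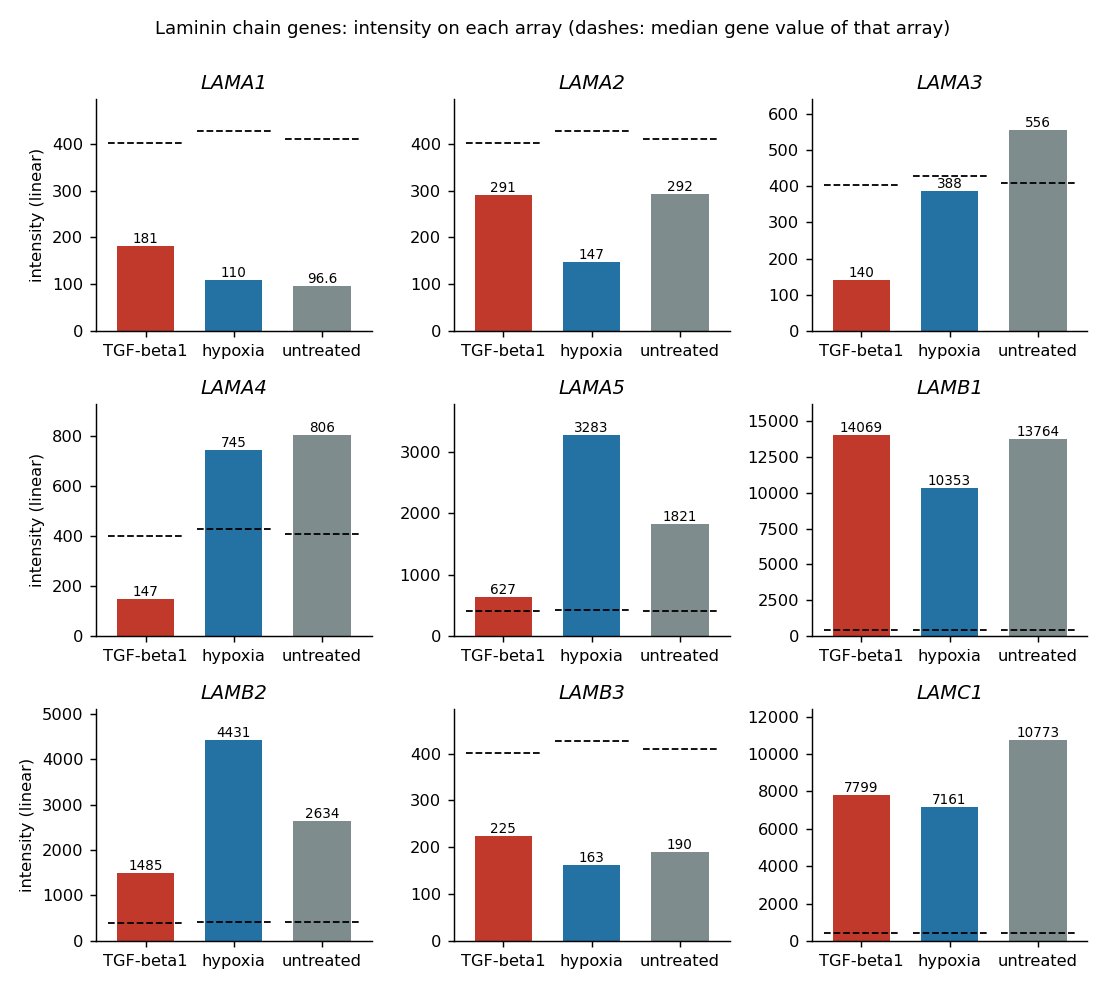
Intensity (linear scale, each panel from 0) of the 9 laminin chain genes on the TGF-beta1, hypoxia and untreated arrays, 1 array each, with dashes at the median gene value of that array. LAMA3, LAMA4, LAMA5 and LAMB2 are lowest on the TGF-beta1 array, LAMA5 and LAMB2 are highest on the hypoxia array, and LAMA1, LAMA2 and LAMB3 lie under the dashes throughout.

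Among the alpha chains, LAMA4 showed the largest difference. LAMA4 codes for the alpha chain of the laminins around blood vessels, fat cells and muscle fibres, which in most cases pairs with LAMB1 and LAMC1. Its intensity was 147 on the TGF-beta1 array, 745 on the hypoxia array and 806 on the untreated array. TGF-beta1 spheres thus stood apart, and the hypoxia and untreated readings lay close together. The log2 difference for TGF-beta1 minus untreated was -2.46 (a 5.49-fold lower reading), where features of genes of similar brightness differed with an SD of 0.40. A difference at least this far below 0 was shared by 19 of the 14836 named genes, LAMA4 included. The TGF-beta1 reading lies in the dim range, so the fold may be understated.

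LAMA3 codes for the alpha chain that anchors stratified epithelium through hemidesmosomes, in a trimer with LAMB3. Its feature, NM_000227, is named after the transcript of the shorter alpha chain made from an internal start of the gene. Probe positions were not examined, so whether the feature also reads the longer transcript was not tested. The intensity was 140 on the TGF-beta1 array, 388 on the hypoxia array and 556 on the untreated array. The log2 difference was -1.99 for TGF-beta1 minus untreated (3.98-fold lower, between-feature SD 0.60). A difference at least as far below 0 was seen in 67 named genes. Only the untreated reading was above the floor, and with a TGF-beta1 reading this dim the fold may be understated, as for LAMA4.

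LAMA5 codes for the broadly expressed alpha chain of adult epithelial and vascular basement membranes and binds integrins that contain ITGA3 or ITGA6. Its intensity was 627 on the TGF-beta1 array, 3283 on the hypoxia array and 1821 on the untreated array. The 3 arrays were thus well separated, with TGF-beta1 lowest and hypoxia highest. The log2 difference for TGF-beta1 minus untreated was -1.54 (2.90-fold lower, between-feature SD 0.26), and all 3 readings were above the floor. A difference at least that far below 0 occurred in 219 named genes, 1.48% of the total.

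LAMA1, the alpha chain of the early embryonic basement membrane, read 181 with TGF-beta1, 110 under hypoxia and 96.6 untreated. All 3 values lay below the floor, so its log2 difference of 0.90 for TGF-beta1 minus untreated made no call. LAMA2, the alpha chain of skeletal muscle and peripheral nerve, read 291 with TGF-beta1, 147 under hypoxia and 292 untreated, again below the floor throughout. The TGF-beta1 and untreated readings of LAMA2 were nearly equal (log2 difference 0.00).

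**Figure D2:**
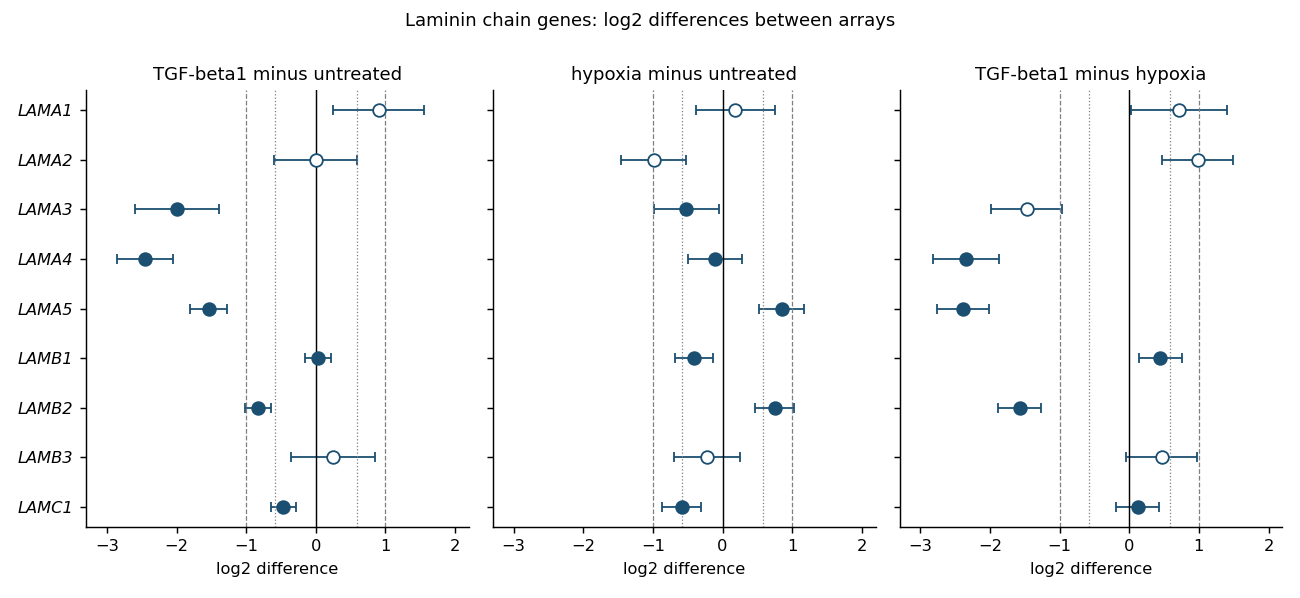
Log2 difference of each laminin chain gene in the 3 comparisons, with filled points above the floor, open points below it, dashed lines at 2-fold and dotted lines at 1.5-fold. Bars are the SD between features of the same gene in the matching intensity bin and hold no variation between cultures. LAMA3, LAMA4 and LAMA5 lie beyond the 2-fold line in both comparisons that involve the TGF-beta1 array, LAMA3 as an open point against hypoxia. LAMB1 and LAMC1 stay inside it in all 3.

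Sequences upstream of a RefSeq start are shown for the 4 genes that passed 2-fold in any comparison, because these chains differed most. For LAMA3 the window precedes the start of the short transcript that its feature is named after. The sequences are the 250 bases before that start on GRCh38.p14, written 5′ to 3′ along the gene's strand. Capitals mark matches to TGANTCA (the consensus of AP-1) or CAGAC (the core of SMAD-binding elements), searched on both strands. The LAMA4 window also lies inside the annotated gene, which reaches chr6:112254985, so the start used is internal to the gene. The windows are chr6:112254568-112254817 on the minus strand for LAMA4, chr18:23872770-23873019 on the plus strand for LAMA3, chr20:62367313-62367562 on the minus strand for LAMA5 and chr3:49133051-49133300 on the minus strand for LAMB2.
LAMA4: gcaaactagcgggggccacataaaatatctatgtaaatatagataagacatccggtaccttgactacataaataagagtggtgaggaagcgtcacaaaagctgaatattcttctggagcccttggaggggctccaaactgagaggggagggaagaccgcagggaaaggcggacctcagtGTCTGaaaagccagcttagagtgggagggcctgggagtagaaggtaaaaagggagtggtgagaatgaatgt
LAMA3: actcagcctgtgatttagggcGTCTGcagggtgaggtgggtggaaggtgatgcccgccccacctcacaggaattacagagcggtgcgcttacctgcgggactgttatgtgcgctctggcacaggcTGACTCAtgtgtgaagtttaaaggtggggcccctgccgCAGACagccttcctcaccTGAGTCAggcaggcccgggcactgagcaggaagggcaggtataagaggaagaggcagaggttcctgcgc
LAMA5: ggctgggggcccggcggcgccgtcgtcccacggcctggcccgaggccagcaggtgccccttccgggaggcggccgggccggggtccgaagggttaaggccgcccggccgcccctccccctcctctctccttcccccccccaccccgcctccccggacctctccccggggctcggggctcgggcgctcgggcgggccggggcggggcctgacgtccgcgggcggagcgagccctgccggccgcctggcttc
LAMB2: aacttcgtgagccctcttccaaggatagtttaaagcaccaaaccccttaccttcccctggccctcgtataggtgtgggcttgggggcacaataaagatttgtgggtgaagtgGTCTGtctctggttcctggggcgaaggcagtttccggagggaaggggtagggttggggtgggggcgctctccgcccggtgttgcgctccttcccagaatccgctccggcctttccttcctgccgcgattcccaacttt
LAMA3 held 2 matches to TGANTCA, which begin 125 and 69 bases before the start, and 2 to CAGAC. LAMA4 and LAMB2 each held 1 match to CAGAC, which begins 71 bases before the start in LAMA4 and 138 in LAMB2, and none to TGANTCA. LAMA5 held neither, in a window of 82.8% G and C. Of the chains that passed 2-fold in no comparison, LAMC1 held 1 match to CAGAC, 56 bases before the start. LAMB3 held 1 match to TGANTCA in 1 of its windows, 67 bases before the start, and LAMB1 and LAMA2 held neither motif. Matches were thus not confined to the chains that differed most. Of 34788 distinct RefSeq windows of the same length, 6.59% held TGANTCA and 38.0% held CAGAC. Other motifs were searched as well. CANNTG (the E-box) occurred in LAMA3 (2 matches) and LAMA5 (1), and in 61.8% of all windows. ACGTG (the core of the HIF-binding element) occurred in none of the 4 windows and in 18.5% of all windows. Matches overlap where motifs share bases, as CANNTG does with TGANTCA in LAMA3. A match is a string of letters in the window and was not tested as a binding site.

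The beta and gamma chains showed smaller differences with TGF-beta1. LAMB1, the widely used beta chain, read 14069 with TGF-beta1, 10353 under hypoxia and 13764 untreated. The log2 difference for TGF-beta1 minus untreated was 0.03, inside the between-feature SD of 0.18. LAMC1, the gamma chain of most laminins, read 7799 with TGF-beta1, 7161 under hypoxia and 10773 untreated, so both treated arrays lay below the untreated one. Its log2 difference for TGF-beta1 was -0.47, within 1.5-fold. LAMB2, the beta chain of the neuromuscular junction and the kidney filter, read 1485 with TGF-beta1, 4431 under hypoxia and 2634 untreated. It had the same order of arrays as LAMA5, and its log2 difference for TGF-beta1 minus untreated was -0.83 (1.77-fold lower, between-feature SD 0.18). LAMB3, the beta chain of the hemidesmosome laminin, read 225, 163 and 190 on the TGF-beta1, hypoxia and untreated arrays, all below the floor.

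Chains that share a trimer therefore differed by unequal amounts. With TGF-beta1, the log2 difference of LAMA4 minus that of LAMB1 was -2.49, and minus that of LAMC1 -1.99, where LAMB1 and LAMC1 code for the usual partners of its chain. For LAMA5 the same quantities were -1.57 and -1.07. LAMB2 was -0.86 relative to LAMB1, its alternative in the beta position. These values compare changes in RNA reading and hold no measurement of assembled or secreted laminin. They also set dim features against bright ones, and whether such features respond equally was not tested.

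**Figure D3:**
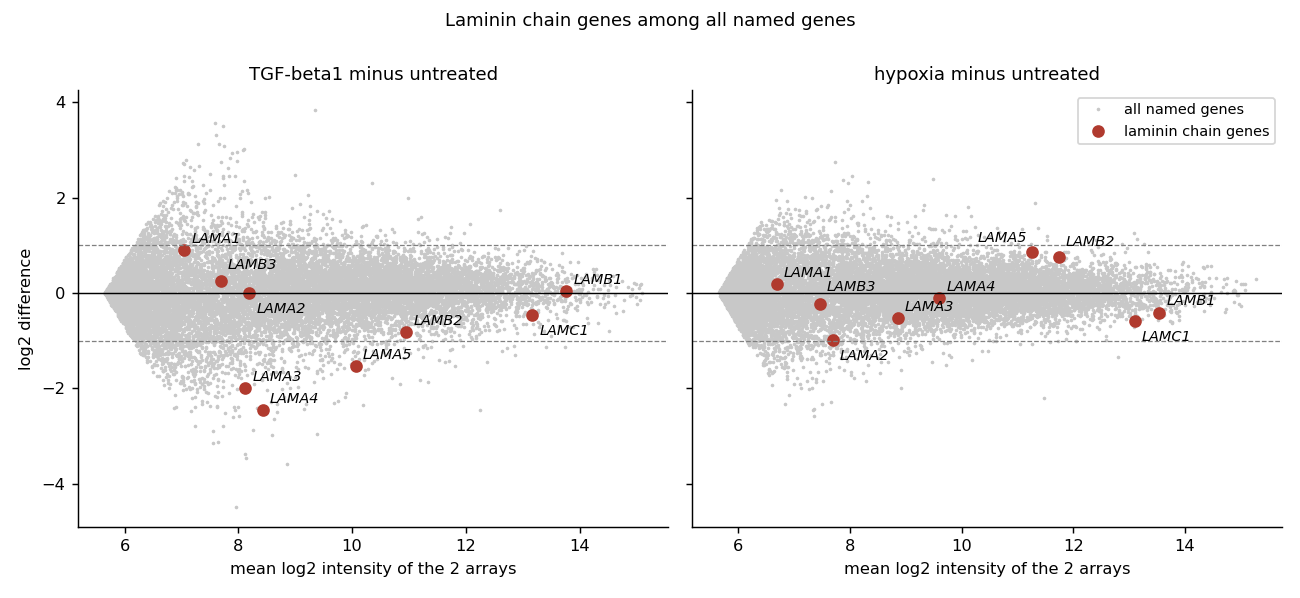
Log2 difference against mean log2 intensity of both arrays for all 14836 named genes (grey) and the 9 laminin chain genes (red), for TGF-beta1 minus untreated (left) and hypoxia minus untreated (right), with dashed lines at 2-fold. In the left panel LAMA3, LAMA4 and LAMA5 lie below the lower dashed line, and in the right panel none of the 9 passes either line.

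Under hypoxia LAMA5 and LAMB2 were higher and LAMC1 was lower than in untreated spheres, all by less than 2-fold. At 2-fold, 0 of the 9 genes were higher and 0 lower, against 0.87% and 0.519% of all named genes. At 1.5-fold 2 were higher and 1 lower, against 4.56% and 3% of all named genes. The median log2 difference of the 9 genes was -0.22, against 0.04 over all named genes, with 3 brighter and 6 dimmer. Of all named genes, 7965 were brighter and 6871 dimmer. Centred on the array medians, all genes split 555 higher and 562 lower at 1.5-fold, against 676 higher and 445 lower as deposited, and the laminin split was 2 higher and 1 lower both ways. This comparison uses the same untreated array as the TGF-beta1 comparison.

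LAMA5, at 3283 under hypoxia and 1821 untreated, differed by 0.85 (1.80-fold, between-feature SD 0.32). LAMB2, at 4431 under hypoxia and 2634 untreated, differed by 0.75 (1.68-fold, SD 0.28). LAMC1, at 7161 under hypoxia and 10773 untreated, differed by -0.59 (SD 0.28), just past the 1.5-fold limit. LAMA3 differed by -0.52 and LAMB1 by -0.41, both within 1.5-fold. LAMA4 showed little difference (-0.11). Among the 9 members the largest difference under hypoxia was that of LAMA2, -0.99, from readings of 147 under hypoxia and 292 untreated that both lie below the floor. LAMA1 and LAMB3 differed by 0.18 and -0.22, also below the floor.

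Set directly against hypoxia, the TGF-beta1 array was lower for LAMA4, LAMA5 and LAMB2. At 2-fold, 3 of the 9 genes were lower and 0 higher, against 3.07% and 1.75% of all named genes. At 1.5-fold the counts were again 3 lower and 0 higher, against 8.18% and 7.06% of all named genes. The median of the 9 was 0.12, against -0.03 over all named genes, since 5 of the 9 were brighter and 4 dimmer. Of all named genes, 7070 were brighter and 7763 dimmer. LAMA5 differed by -2.39 (627 with TGF-beta1 and 3283 under hypoxia, 5.24-fold lower) and LAMA4 by -2.34 (147 and 745 on the same arrays, 5.08-fold lower). LAMB2 differed by -1.58 (2.98-fold lower). LAMA3 differed by -1.47, from a hypoxia reading of 388 that lies under the floor. LAMC1 differed by 0.12 and LAMB1 by 0.44. Centring the arrays on their medians moved the median of all genes by 0.12 in this comparison, and split all genes at 2-fold into 415 higher and 333 lower, against 259 higher and 455 lower as deposited. Relative to the median of all genes, LAMA5 stood at -2.36, LAMA4 at -2.31 and LAMB2 at -1.55. The comparison shares its TGF-beta1 array with the comparison against untreated spheres and is no second observation.

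The genes with the most similar pair of log2 differences (TGF-beta1 and hypoxia, each minus untreated) were sought among 7612 genes above the floor in both comparisons, by Euclidean distance between the pairs of log2 differences, which come from 3 arrays. For LAMA4 these were LONRF2 (distance 0.16), MAF (0.16), a leucine-zipper transcription factor, and SCG2 (0.18), the secretogranin II gene. MAF read 261 with TGF-beta1, 1291 under hypoxia and 1306 untreated. For LAMA3 they were ZNF503 (0.02), a zinc-finger gene, CXADR (0.08), the coxsackievirus and adenovirus receptor of cell junctions, and CPE (0.11), carboxypeptidase E. For LAMA5 they were RMDN1 (0.14), CHRNA1 (0.16), the alpha subunit of the muscle acetylcholine receptor, and LTK (0.20), a receptor tyrosine kinase. All these distances are smaller than the between-feature SD for TGF-beta1 minus untreated (0.40 for LAMA4, 0.60 for LAMA3, 0.26 for LAMA5). The choice and order of the neighbours are therefore not resolved, and shared regulation was not tested.

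LAMB4 and LAMC3, laminin genes outside the 9 members, did not reach the floor in any comparison. LAMC3, a gamma chain, read 204 with TGF-beta1, 154 under hypoxia and 311 untreated. LAMB4, a beta chain, stayed between 58.5 and 71.5.

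The partners of laminin were described from lists of genes, also chosen with earlier results known. Receptors came first: of 21 measured genes, 7 were at least 1.5-fold lower and 1 higher with TGF-beta1, against 6.15% and 6.73% of all named genes, with a median of -0.35. ITGB4, the integrin chain of hemidesmosomes, was the lowest, at 528 with TGF-beta1, 2251 under hypoxia and 1479 untreated (log2 difference for TGF-beta1 -1.48). All 3 of its features were lower with TGF-beta1 (-1.68, -1.50 and -1.27). SDC1, the proteoglycan syndecan-1, went the other way, at 1041 with TGF-beta1, 514 under hypoxia and 284 untreated (1.87). Under hypoxia, 5 receptors were at least 1.5-fold higher and 0 lower, against 4.56% and 3% of all named genes, with a median of 0.09. SDC1 (0.85) and ITGA7 (0.83), a laminin-binding integrin chain of muscle, differed most. ITGB4 belongs to the hemidesmosome list as well. Of the 7 measured genes there, 2 were lower and 0 higher with TGF-beta1 at 1.5-fold (ITGB4, and DST, the dystonin plakin, at -0.76), against 6.15% and 6.73% of all named genes. Under hypoxia 2 were higher and 0 lower (ITGB4 at 0.61 and COL7A1, the anchoring-fibril collagen, at 0.60), against 4.56% and 3%.

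Of the other structural partners in the basement membrane, 19 were measured. Of these, 2 were lower and 0 higher with TGF-beta1 at 1.5-fold (median -0.25), close to the 6.15% and 6.73% of all named genes, and none differed 2-fold above the floor. NID2, a nidogen that links laminin to collagen IV, read 670 with TGF-beta1 and 1096 untreated (-0.71), and COL18A1, the endostatin-bearing collagen, read 3749 with TGF-beta1 and 5892 untreated (-0.65). Under hypoxia 1 was higher and 0 lower (median 0.13), again close to the 4.56% and 3% of all named genes. SMOC1, a SPARC-family protein, read 719 under hypoxia and 144 untreated (2.32), and COL4A5, a collagen IV chain, differed by 0.53. COL4A5 read 84.9 with TGF-beta1, 460 under hypoxia and 318 untreated. A further list covered the synthesis of matriglycan, the sugar chain through which dystroglycan binds laminin globular domains. It also held general enzymes of mannose supply, among them GMPPB, DPM1 and DPM2. The list had a median of 0.46 with TGF-beta1. Of 17 measured, 4 were at least 1.5-fold higher and 1 lower, against 6.73% and 6.15% of all named genes. The 4 higher were LARGE2, GMPPB, DPM2 (0.79) and DPM1 (0.61). The 1 lower was B3GALNT2 (-0.84), which differed by -0.58 under hypoxia, within 1.5-fold. The median over all 17 leans on the 4 members below the floor, which were all brighter with TGF-beta1. LARGE2, which polymerises matriglycan, read 654 with TGF-beta1, 85.6 under hypoxia and 85.4 untreated (2.94). The 2 lower readings are dim, so the fold is not settled. GMPPB, an enzyme of GDP-mannose synthesis, differed by 0.91 with TGF-beta1 (1.38 and 0.44 by its 2 features) and by 0.78 under hypoxia. POMT2, an O-mannosyltransferase, differed by 0.59 under hypoxia, where 2 of the 17 were higher and 0 lower (median 0.00), against 4.56% and 3% of all named genes. DAG1, the dystroglycan gene itself, read 1705 with TGF-beta1, 1649 under hypoxia and 1905 untreated.

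**Figure D4:**
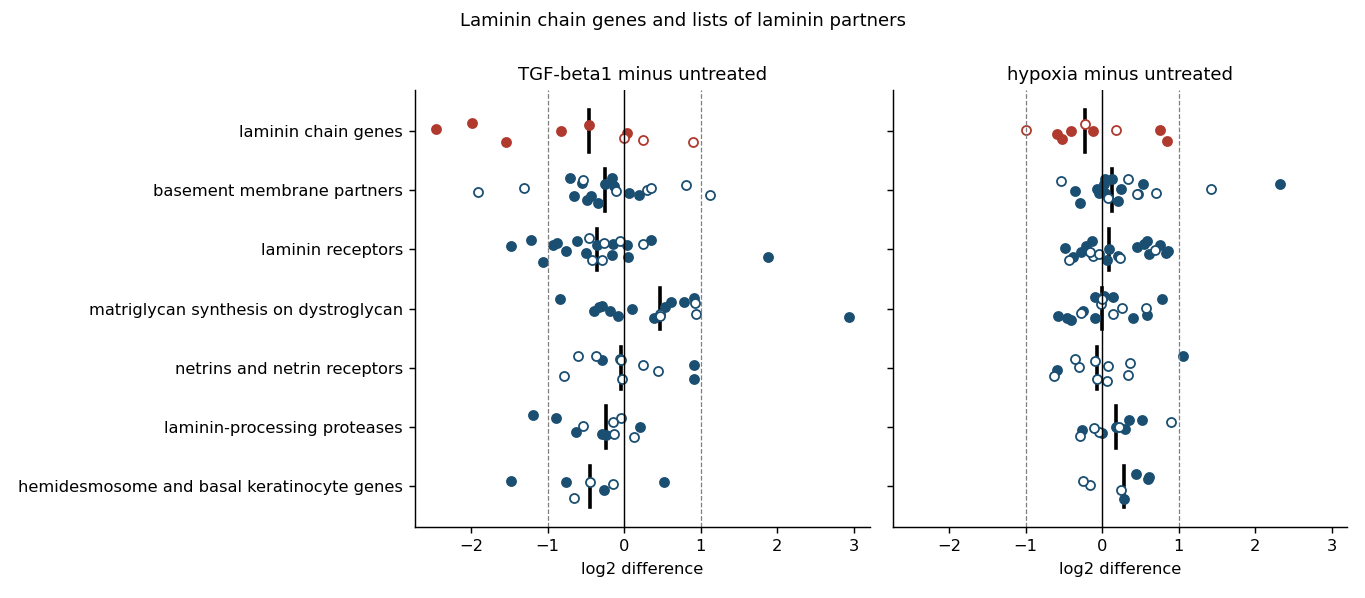
Log2 differences of the 9 laminin chain genes (red) and of 6 lists of partner genes (blue) for TGF-beta1 minus untreated (left) and hypoxia minus untreated (right), with filled points above the floor, open points below it, a black bar at each list's median over all measured members and dashed lines at 2-fold. The laminin row spreads from -2.46 to 0.90 on the left and from -0.99 to 0.85 on the right.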

How the data were processed

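The deposited table holds the authors' processed intensity values for 38572 transcript features on 3 one-colour NimbleGen arrays. How the authors corrected, summarised, normalized and filtered them is not stated. Similar medians led to its use as already normalized, and depth has no equivalent beyond the number of arrays, which limits precision. Features were named by the platform annotation, with symbols updated through Entrez identifiers (15623 features), or by unversioned accession in the RefSeq annotation of GRCh38.p14 (593), and 22356 were not named here. Intensities were log2 transformed without a pseudocount and averaged over a gene's features (Python 3.11.15, pandas 2.3.3). Calls needed 2-fold or 1.5-fold and the floor. The procedure was run on simulated data with less noise than the between-feature SD and differences planted only in bright genes. That run checks the code and says nothing on calls of dim genes. Alternatives were 3 scalings, a pseudocount of 50, other gene values, other floors and naming without accessions. The text names all 9 laminin genes, the 2 largest differences above the floor per partner list and comparison with untreated, and the 3 nearest genes of each laminin gene past 2-fold against untreated. COL4A5 and DAG1 values on all arrays, and LAMC3, LAMB4, DPM1, DPM2 and B3GALNT2, were added after values were seen. So were the motif matches of chains short of 2-fold. The members and lists were chosen with earlier results of these data known. Promoter sequences are RefSeq's. Some listed genes are not reported here.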

Additional observations from a re-analysis of the deposited data

How the results depend on the processing

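The 15 counts and medians of the 9 laminin genes kept their size in 144 of 150 pairs of a result and a setting. A count could move by 1.5 times and a median by the SD between features. That SD (0.46, 0.42 and 0.49 in the 3 comparisons) is close to or above the size of the medians (-0.47, -0.22 and 0.12). Naming without accessions moved the TGF-beta1 median to -0.24 and the 2-fold lower count from 3 to 2, both counted as kept. With 1 feature per gene, the median over features and the brightest feature could change no laminin value, and the floors no median. The 6 exceptions all came from the floor. Without a floor, and equally with the floor at the 25th percentile, the genes at least 1.5-fold higher numbered 1 in place of 0 for TGF-beta1 minus untreated (LAMA1) and 2 in place of 0 for TGF-beta1 minus hypoxia (LAMA1 and LAMA2), and those 1.5-fold lower numbered 2 in place of 1 for hypoxia minus untreated (LAMA2 added). All genes counted also grow without a floor, to 648 higher and 807 lower at 2-fold for TGF-beta1 minus untreated, against 258 and 307 with it. Over 9 alternatives LAMA4 ranged from -2.46 to -2.12 for TGF-beta1 minus untreated, LAMA5 from -1.55 to -1.46 and LAMB2 from -0.85 to -0.75. LAMA3 ranged from -1.99 to -1.68 over 8, since naming without accessions drops it and leaves 2 genes lower at 2-fold. For a gene with 1 feature, only the 3 scalings and the pseudocount could move such a value. The other alternatives return the reported value by construction and add nothing to these ranges. For hypoxia minus untreated LAMA5 ranged from 0.81 to 0.85, LAMB2 from 0.71 to 0.75 and LAMC1 from -0.63 to -0.59. LAMA2 changed sign around 0.00 for TGF-beta1 minus untreated in 3 alternatives. Adding LAMB4 and LAMC3, an alternative chosen after seeing the data, changed no call. No paired analysis was possible because each group has 1 array. No detection calls were used, so whether the dim readings of LAMA1, LAMA2 and LAMB3, and those of LAMA3 and LAMA4 with TGF-beta1, exceed background is unknown.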

Other observations

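Genes that cut laminin chains or release matrix around them formed a list of 11 measured proteases. With TGF-beta1, 9 were dimmer and 2 brighter, against 7458 dimmer and 7376 brighter of all named genes. Only 6 of the 11 were above the floor. Above the floor, 3 passed 1.5-fold downward and 0 upward (median -0.24), against 6.15% and 6.73% of all named genes. CTSB, the lysosomal protease cathepsin B, read 792 with TGF-beta1, 2320 under hypoxia and 1817 untreated (log2 difference -1.20 for TGF-beta1 minus untreated). PLAU, the urokinase plasminogen activator, read 866 with TGF-beta1, 1831 under hypoxia and 1608 untreated (-0.89). Under hypoxia 0 of the 11 passed 1.5-fold in either direction above the floor (median 0.19), where 4.56% of all named genes were higher and 3% lower, with PLAT, the tissue plasminogen activator, at 0.52 and CTSB at 0.35.

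Netrins share the N-terminal laminin fold and guide axons and migrating cells. Of 11 measured netrin and netrin-receptor genes, 2 passed 1.5-fold upward and 0 downward with TGF-beta1 above the floor (median -0.04), against 6.73% and 6.15% of all named genes. Under hypoxia 1 was higher and 1 lower (median -0.07), against 4.56% and 3%. With so few genes these counts lie close to the shares of all genes. NTNG1, a membrane-anchored netrin, read 943 with TGF-beta1, 1042 under hypoxia and 501 untreated, so both treated arrays lay above the untreated one (0.91 and 1.06). UNC5C, a netrin receptor, read 528 with TGF-beta1, 219 under hypoxia and 281 untreated (0.91 for TGF-beta1 minus untreated). UNC5B, another netrin receptor, read 1134 with TGF-beta1, 919 under hypoxia and 1385 untreated, and differed by -0.59 under hypoxia.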
